A study of Mus musculus with 10 samples.

Results

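The chromatin over 5 genes for transcription factors of photoreceptors, Crx, Crxos, Nrl, Nr2e3 and Otx2, was examined for 2 active histone marks in mouse retina held in low or high glucose. Every peak that the deposited quantitation assigned to one of these symbols was taken, wherever it lay and whatever its signal. This gave 17 of 108253 peaks, covering 21.7 kb, of which 9 were annotated as promoters, 4 as introns, 2 as distal intergenic, 1 as an exon and 1 as a 5' UTR. Crx had 2 peaks, Crxos 3, Nrl 3, Nr2e3 4 and Otx2 5.

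Retinas of wild-type C57BL/6J mice at postnatal day 28 were freed of sclera and pigment epithelium and kept for 48 hours as explants in Neurobasal-A medium with 5 mM or 25 mM glucose. No group carried an allele or a drug, and every library came from whole retina, in which rods are the most numerous cells. CUT&Tag, in which an antibody directs a tagging transposase to a modified histone, was done for lactylation of histone H3 lysine 18 (H3K18La, 3 libraries per glucose level) and acetylation of H3 lysine 27 (H3K27Ac, 2 libraries per glucose level), from 500000 cells per assay. The sources conflict on the reagents. The titles of the libraries and the study's methods name H3K27Ac, whereas the deposited extraction protocol names an H3K9me3 antibody beside that for H3K18La, and pA-MNase as the enzyme. The names H3K27Ac and CUT&Tag are used here as the titles give them. The labels put the 10 libraries in 1 batch and do not say whether replicates came from separate animals, although the study's methods speak of biological replicates, so p-values measure only the spread between these libraries, which may be partly technical. In tissue of many cell types, fewer cells of one type and less mark per cell cannot be told apart.

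OTX2 is the homeodomain factor that commits retinal progenitors to the photoreceptor and bipolar fates, and it acts upstream of CRX, a related homeodomain factor that activates photoreceptor genes in rods and cones. NRL, a basic leucine zipper protein of the MAF family, directs photoreceptor precursors to the rod fate, and the nuclear receptor NR2E3, which NRL induces, represses cone genes in rods. Crxos is transcribed from the strand opposite to Crx, away from it, and carries homeobox sequence of its own. H3K27Ac is a mark of active promoters and enhancers, and H3K18La draws its acyl group from lactate, which the retina makes in large amounts by aerobic glycolysis.

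Signal was given as RPKM, reads scaled to the length of the peak and to a denominator of each library. All values were whole multiples of 1 read, so reads were also recovered. Coverage of H3K18La was thin. A member peak held 0 to 64 reads in a library at 5 mM, with a median of 3, and 3 to 262 at 25 mM, with a median of 23. H3K27Ac gave 8 to 465 reads at 5 mM and 42 to 2044 at 25 mM. Summed over the 17 peaks, the H3K18La libraries held 48 to 206 reads at 5 mM and 491 to 788 at 25 mM, and the H3K27Ac libraries 628 and 1533, then 7161 and 4704. In 3 of 51 values of H3K18La at 5 mM a member peak had 0 reads, which allows a level of up to 2.42 to 4.92 RPKM (3 reads, counting error only).

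The libraries differed as a whole with glucose. The denominators were recovered from the RPKM values and may include the authors' normalization factors, so shares of them need not be shares of sequenced reads. Reads in peaks made up 11.8% to 12.01% of the denominator in H3K18La at 5 mM and 31.2% to 35.0% at 25 mM, and 21.1% and 31.5% in H3K27Ac at 5 mM against 69.5% and 56.5% at 25 mM. The median peak therefore rose for both marks, by 1.10 on the log2 scale for H3K18La and by 0.84 for H3K27Ac. This was over 65614 and 72442 peaks with a mean of at least 1 RPKM over both glucose levels of the mark. Values of the member peaks are read below against these shifts.

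The sequences of the start regions are shown because peaks covered them wholly or in part and because CRX and OTX2 recognise a short core, GGATTA (read on the other strand TAATCC), and MAF proteins a core, TGCTGA. Both were searched on both strands together with the GC box GGGCGG. No 2 of these overlap in the sequences printed. Each is the 250 bases before a RefSeq start (GRCm38.p6), written 5' to 3' on the strand of the gene, with motif letters in capitals. The Crx window lies at chr7:15879956-15880205 (minus strand) and all of it is inside the Crx promoter peak. The Otx2 window, at chr14:48665110-48665359 (minus strand), has 28 bases in Otx2 promoter peak A. The Nrl window, at chr14:55524253-55524502 (minus strand), and the Nr2e3 window, at chr9:59950080-59950329 (minus strand), are wholly inside their main promoter peaks. The Nrl window precedes a RefSeq start downstream of the main start used below (chr14:55524981). It is thus inside that transcript, and the bases before the main start are not shown. The last sequence is the central 300 bases of the peak downstream of Crx, at chr7:15864294-15864593, read on the strand of Crx.
Crx promoter: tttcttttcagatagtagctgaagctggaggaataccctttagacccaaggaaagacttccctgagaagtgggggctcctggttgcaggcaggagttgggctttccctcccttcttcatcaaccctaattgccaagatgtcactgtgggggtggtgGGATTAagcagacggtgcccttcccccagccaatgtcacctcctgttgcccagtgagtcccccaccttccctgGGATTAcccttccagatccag
Otx2 promoter: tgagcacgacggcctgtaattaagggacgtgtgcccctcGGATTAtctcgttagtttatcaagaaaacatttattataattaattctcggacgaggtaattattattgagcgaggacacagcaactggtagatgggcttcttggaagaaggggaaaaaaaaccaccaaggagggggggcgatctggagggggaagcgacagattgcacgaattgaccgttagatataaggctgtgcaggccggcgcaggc
Nrl promoter: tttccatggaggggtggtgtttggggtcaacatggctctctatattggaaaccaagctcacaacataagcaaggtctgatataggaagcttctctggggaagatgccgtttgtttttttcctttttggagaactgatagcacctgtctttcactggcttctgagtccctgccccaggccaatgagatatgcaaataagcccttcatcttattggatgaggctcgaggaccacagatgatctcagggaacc
Nr2e3 promoter: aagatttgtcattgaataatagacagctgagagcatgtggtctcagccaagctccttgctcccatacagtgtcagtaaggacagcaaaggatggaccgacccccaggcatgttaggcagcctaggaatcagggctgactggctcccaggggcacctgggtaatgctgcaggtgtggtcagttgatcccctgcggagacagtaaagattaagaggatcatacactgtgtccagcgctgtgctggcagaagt
Crx downstream peak: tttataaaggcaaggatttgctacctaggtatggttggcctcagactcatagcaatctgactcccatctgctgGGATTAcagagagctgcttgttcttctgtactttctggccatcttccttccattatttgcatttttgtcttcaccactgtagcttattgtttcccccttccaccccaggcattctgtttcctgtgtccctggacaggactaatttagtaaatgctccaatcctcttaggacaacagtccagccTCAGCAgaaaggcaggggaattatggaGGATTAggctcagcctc

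The Crx window held 2 copies of GGATTA, at positions 157 and 230 counted from its 5' end, the second ending 16 bases before the start. The Otx2 window held 1, at position 40, outside promoter peak A, which covers only the last 28 bases of the window. It was the one Otx2 window of 4 with this motif, and the 3 not printed held none. The centre of the Crx downstream peak held 2, at positions 74 and 284, and 1 TGCTGA on the other strand at position 257. The letters of the 3 motifs were in neither the Nrl nor the Nr2e3 window. Of 32851 RefSeq promoter windows of the same length, 6.25% held GGATTA, 16.1% TGCTGA and 32.7% GGGCGG. Of 108253 peak centres of 300 bases, 11.5% held GGATTA and 24.8% TGCTGA. Over their whole width, the member promoter peaks had a median of 18.9 CpG per kb, against 49.0 in all promoter peaks. Otx2 and the internal Nrl promoter stood apart, with 42.4 to 60.2 CpG per kb in their 4 promoter peaks, whereas the Crx promoter peak had 4.05 and the Nr2e3 main promoter peak 14.2. These matches are descriptions of letters, not of binding.

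Glucose was compared for each mark by limma on log2(RPKM + 0.5), and a peak was called when its p, adjusted by the Benjamini-Hochberg method over all peaks tested, was under 0.05. All 17 member peaks were tested for both marks, and every fitted change was upward. For H3K18La, 15 of 17 were called higher at 25 mM and 0 lower, where 37.3% of all peaks tested were called higher and 0.0869% lower. The member median was 1.96 on the log2 scale against 1.10 over all peaks, and 16 of 17 members lay above the median peak. For H3K27Ac, 16 of 17 were called higher and 0 lower, against 33.9% and 0.164% of all peaks, with a member median of 1.94 against 0.84 and all 17 above the median peak. By kind, 9 of 9 promoter peaks were called higher for H3K18La and 8 of 9 for H3K27Ac, where 33.3% and 57.0% of all promoter peaks were, and 6 of 8 and 8 of 8 of the others, where 38.2% and 27.8% were. In 14 of 17 peaks both marks were called, where 22.0% of the 57421 peaks tested for both were. The members were among the stronger peaks by the mean over both glucose levels of a mark. That mean includes the 25 mM libraries, so a rise with glucose itself helps a peak past the minimum. For H3K18La, the Crxos intron peaks (0.77 and 0.56 RPKM at 5 mM) and the Otx2 intron peak (0.92) passed 1 RPKM only through 25 mM. Among peaks with such a mean of at least 2 RPKM, 68.5% were called higher for H3K18La and 52.0% for H3K27Ac, with medians of 1.44 and 1.06. Of the members, 14 of 16 and 17 of 17 were. These shares, and those over all peaks tested, are partly set by the filter. The lowest library at 25 mM exceeded the highest at 5 mM in 14 member peaks for H3K18La (53.4% of all peaks) and in 17 for H3K27Ac (69.3%). The reverse order was seen in no member peak, and in 0.413% and 2.59% of all peaks.

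These counts depended on scaling and, for H3K27Ac, on single libraries and on the minimum RPKM. When libraries were centred on their median peak, which shifted that peak by -0.91 for H3K18La and by -0.68 for H3K27Ac, 1 and 7 member peaks were called, where 1040 of 65614 and 1144 of 72442 peaks passed. Scaled to reads in peaks, which shifted the median peak by -1.07 and -1.06, limma called 0 of 65614 and 0 of 72442 peaks, hence no member. Before adjustment, 7636 and 12491 peaks were under 0.05. On that scale 14 of 17 member changes for H3K18La and 16 of 17 for H3K27Ac were still upward, and 14 and 17 lay above the median peak. Without replicate 1 or without replicate 2 of H3K27Ac at 25 mM, 0 of 17 member peaks passed for that mark, where 10 of 70435 and 980 of 71062 peaks did. With no minimum on RPKM, limma called 0 of 108253 peaks, while 31013 had an unadjusted p under 0.05. The loss of the members was thus part of a loss over all peaks. All 17 member changes stayed upward in those fits.

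**Figure D1:**
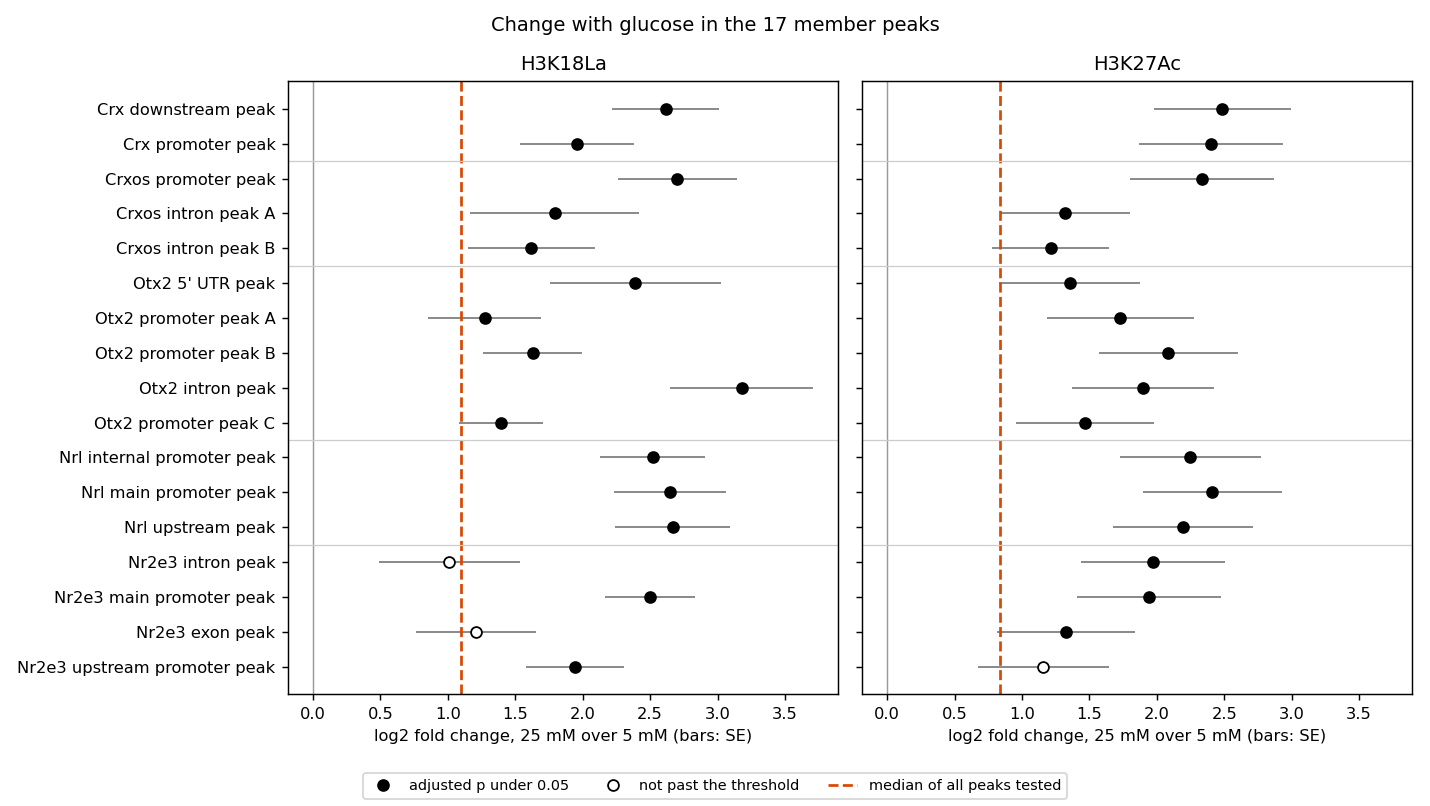
Fitted log2 fold change (25 mM over 5 mM glucose, horizontal axis) of the 17 member peaks for H3K18La (left) and H3K27Ac (right), with standard errors as bars, filled points for an adjusted p under 0.05 and a dashed line for the median of all peaks tested (1.10 and 0.84). The 3 Nrl peaks lie together at the right for both marks, and Nr2e3 is the gene with open points.

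Crx (ENSMUSG00000041578) held the largest H3K27Ac change of the members, in the peak downstream of the gene, and at 25 mM the highest H3K27Ac level, at its promoter. Both ranks depended on single libraries. Without replicate 2 at 5 mM the downstream change was 2.84, below that of the Crxos promoter peak (2.98). In replicate 2 at 25 mM the Crx promoter peak (41.2 RPKM) lay below Otx2 promoter peak A (56.3). The promoter peak, at chr7:15879224-15880458, runs from position -490 to 744 relative to the start of the transcript. H3K18La there measured 2.69, 1.56 and 1.19 RPKM in replicates 1 to 3 at 5 mM and 14.4, 7.57 and 4.91 at 25 mM. H3K27Ac measured 8.05 and 11.99 at 5 mM and 70.8 and 41.2 at 25 mM, the highest group mean of the members at that glucose level (56.0 ± 20.9, SD, n = 2). The groups did not overlap for either mark, and replicate 1 was the highest library at 25 mM in both. The fitted changes were 1.96 (SE 0.42, adjusted p = 0.00499) for H3K18La and 2.40 (SE 0.53, adjusted p = 0.000524) for H3K27Ac.

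The second Crx peak, at chr7:15863388-15865498, lies beyond the 3' end of the gene, with its nearer edge 449 bases past the end of the transcript and 14470 bases from the start of the promoter peak's transcript. It is annotated as distal intergenic. H3K18La measured 2.02, 1.46 and 0.70 RPKM at 5 mM and 16.4, 8.85 and 8.15 at 25 mM, and H3K27Ac 4.27 and 7.25, then 44.5 and 25.3. No library at 25 mM came near those at 5 mM. The changes of 2.62 (SE 0.40, adjusted p = 0.000862) for H3K18La and 2.49 (SE 0.51, adjusted p = 0.000159) for H3K27Ac exceeded those of 98.4% and 99.7% of all peaks tested.

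Crxos (ENSMUSG00000074365) starts 2649 bases upstream of Crx on the opposite strand. Its promoter peak, at chr7:15880752-15882077, lies between the 2 starts, 784 to 2109 bases upstream of Crx and 293 bases from the Crx promoter peak, so its assignment to Crxos is by nearest start, and its signal cannot be divided between the genes. H3K18La measured 1.07, 1.60 and 3.89 RPKM at 5 mM and 26.5, 14.1 and 9.66 at 25 mM. This was the highest H3K18La group mean of the members at 25 mM, 16.7 ± 8.71 (SD, n = 3). The rank came from replicate 1, since Otx2 promoter peak A was higher in replicates 2 and 3 (15.7 and 16.1). H3K27Ac went from 6.10 and 15.7 to 69.9 and 38.2. The changes were 2.70 (SE 0.44, adjusted p = 0.00125) and 2.34 (SE 0.53, adjusted p = 0.000684). The H3K27Ac change was 1.69 without replicate 1 and 2.98 without replicate 2 at 5 mM.

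The 2 Crxos intron peaks, in intron 3 of 4, were the weakest of the members. Intron peak A, at chr7:15893007-15893575, held 0 to 3 H3K18La reads per library at 5 mM and 3 to 7 at 25 mM. Intron peak B, at chr7:15894377-15895329, held 1 to 2 and then 5 to 10, and lies upstream of a RefSeq Crxos start whose window is chr7:15895874-15896123. Their H3K18La changes of 1.79 (adjusted p = 0.0418) and 1.62 (adjusted p = 0.0207) passed the threshold only narrowly. Leaving out replicate 1 or 2 at 5 mM, or replicate 1 or 3 at 25 mM, ended the call of peak A (adjusted p 0.0633 to 0.176), and leaving out replicate 2 at 5 mM, or replicate 1 or 2 at 25 mM, that of peak B (0.0530 to 0.111). H3K27Ac rose by 1.3 (adjusted p = 0.0240) and by 1.21 (adjusted p = 0.0225), calls that were also lost without replicate 1 at 5 mM (adjusted p = 0.0753 and 0.0751).

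Otx2 (ENSMUSG00000021848), the earliest-acting factor of the set, had its 5 peaks spread over the gene's several starts. Promoter peak A, at chr14:48664887-48665137, is 251 bases wide. H3K18La there measured 13.2, 4.61 and 2.93 RPKM at 5 mM, from 7, 6 and 1 reads, and 12.2, 15.7 and 16.1 at 25 mM. Replicate 1 at 5 mM lay above replicate 1 at 25 mM, so the groups overlapped. The change of 1.27 (SE 0.42, adjusted p = 0.0335) was the smallest H3K18La change among the member promoter peaks, and it passed only when replicate 1 at 5 mM was the library left out (1.84, adjusted p = 0.00141), not when any other library was (0.84 to 1.40, adjusted p 0.0639 to 0.110). On the scale of reads in peaks its direction turned (-0.090). H3K27Ac did not overlap, with 11.1 and 23.1 RPKM at 5 mM and 52.1 and 56.3 at 25 mM (1.73, SE 0.55, adjusted p = 0.0107).

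Promoter peak B, at chr14:48665509-48666997, and promoter peak C, at chr14:48673549-48675529, lie upstream of peak A. At peak B, H3K18La measured 1.17 to 2.47 RPKM at 5 mM and 4.79 to 7.86 at 25 mM (1.63, adjusted p = 0.00599), and H3K27Ac 5.28 and 10.49, then 37.3 and 29.7 (2.08, adjusted p = 0.00161). At peak C, the H3K18La values were 2.14 to 2.87 and 5.96 to 7.83 (1.39, adjusted p = 0.00567), and H3K27Ac gave 6.30 and 12.03, then 29.9 and 21.01 (1.47, adjusted p = 0.0195). Both peaks were separated by glucose in both marks. The H3K27Ac call of peak C was lost without replicate 1 at 5 mM (adjusted p = 0.0652).

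The largest fitted H3K18La change of the members was in the Otx2 intron peak, at chr14:48667943-48668391, in intron 1 of 4. Just downstream of it lies a RefSeq window before an Otx2 start (chr14:48667645-48667894), and another (chr14:48662735-48662984) lies beside the 5' UTR peak. Their kinds thus depend on the annotation used. The intron peak measured 1.06, 1.72 and 0 RPKM at 5 mM, from 1, 4 and 0 reads, and 12.5, 13.1 and 6.76 at 25 mM, from 11, 24 and 9 reads. The 25 mM libraries were all higher, at low read counts throughout. The change was 3.18 (SE 0.53, adjusted p = 0.00137), above that of 99.8% of peaks tested. Without replicate 3 at 5 mM, the library with 0 reads, it was 2.55, below the Crxos promoter peak (3.13) and the Otx2 5' UTR peak (3.11), and with voom it was 2.79, below the Crxos promoter peak (2.99). H3K27Ac went from 8.76 and 12.2 to 44.3 and 36.0 (1.90, adjusted p = 0.00443). The peak annotated to the 5' UTR, at chr14:48661971-48662558, rose by 2.39 for H3K18La (adjusted p = 0.0134, and 0.0562 without replicate 1 at 25 mM; 1.56 without replicate 1 and 3.11 without replicate 3 at 5 mM) and by 1.35 for H3K27Ac (adjusted p = 0.0336).

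A further peak between promoter peak C and the intron peak, at chr14:48668658-48669343, is assigned to Otx2os1, the antisense RNA of the locus, and is not among the 17. It rose too, from 3.23 ± 1.85 to 9.41 ± 1.52 RPKM for H3K18La (SD, n = 3, log2 change 1.51, adjusted p = 0.00806) and from 11.1 ± 2.29 to 40.9 ± 8.39 for H3K27Ac (SD, n = 2, 1.84, adjusted p = 0.00574). CUT&Tag reads carry no strand of transcription, so signal there cannot be divided between Otx2 and Otx2os1.

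The 3 peaks of Nrl (ENSMUSG00000040632) all changed by over 2 on the log2 scale in both marks. Its main promoter peak, at chr14:55523678-55525342, measured 0.85, 1.74 and 0.44 RPKM for H3K18La at 5 mM and 11.6, 6.94 and 7.29 at 25 mM. H3K27Ac gave 5.00 and 8.41, then 48.9 and 27.6. The groups were well apart in both marks, with changes of 2.65 (SE 0.41, adjusted p = 0.000992) and 2.41 (SE 0.51, adjusted p = 0.000307).

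The other 2 Nrl peaks changed to nearly the same extent. The peak at an internal start, at chr14:55520564-55521643, went for H3K18La from 1.317, 1.43 and 1.36 RPKM to 18.4, 7.97 and 7.18 (2.52, adjusted p = 0.000914), and for H3K27Ac from 7.07 and 9.99 to 61.9 and 28.2 (2.25, adjusted p = 0.000887). The upstream peak, at chr14:55526275-55527194, whose nearer edge is at position -1294 relative to the main start, went for H3K18La from 1.03, 2.52 and 0.80 to 18.2, 9.09 and 8.06 (2.67, adjusted p = 0.00109). Its H3K27Ac rose by 2.19 (adjusted p = 0.00104). For H3K18La the 3 Nrl changes lay at percentiles 97.9 to 98.7 of all peaks tested, and for H3K27Ac at 99.0 to 99.6. No single library left out ended an Nrl call for H3K18La.

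Nr2e3 (ENSMUSG00000032292) had a broad main promoter peak and 3 narrower ones. The main promoter peak, at chr9:59948856-59953561, is 4706 bases wide and the deepest of the members. H3K18La measured 2.82, 2.62 and 1.41 RPKM at 5 mM, from 28, 64 and 9 reads, and 20.9, 13.7 and 11.2 at 25 mM, from 193, 262 and 157 reads. H3K27Ac went from 9.09 and 15.9 to 60.4 and 37.7. The changes were 2.50 (SE 0.33, adjusted p = 0.000551, the smallest of the members for H3K18La) and 1.94 (SE 0.54, adjusted p = 0.00415). It was also the one member peak called for H3K18La after centring on the median peak (adjusted p = 0.0440).

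The flanking Nr2e3 peaks held the 3 changes that missed the threshold. In the intron peak (intron 5 of 7, chr9:59947753-59948327), H3K18La measured 2.47, 0.67 and 3.84 RPKM at 5 mM and 6.19, 5.99 and 2.35 at 25 mM. The groups overlapped, and the change of 1.01 (SE 0.52, adjusted p = 0.143) was under that of the median peak and turned to -0.20 both when scaled to reads in peaks and when centred on the weakest decile of peaks, whereas voom on the recovered reads called it higher (1.59, adjusted p = 0.0180). H3K27Ac in the same peak was well separated, at 11.7 and 11.5 RPKM against 56.8 and 38.7 (1.97, adjusted p = 0.00361). The exon peak, at chr9:59957944-59958627, lies in an exon of an overlapping gene model (ENSMUSG00000084847). Its H3K18La values were 1.39, 2.54 and 2.15, then 6.69, 8.27 and 2.46, also overlapping (1.21, adjusted p = 0.0516), with a direction that turned under the same scalings (-0.034 and -0.0075). Without replicate 3 at 25 mM that peak passed (1.68, adjusted p = 0.0134). It also passed, among other settings, with voom (adjusted p = 0.0446) and with limma on all 10 libraries in 1 fit (0.0277). It did not with a pseudocount of 0.1 (0.0696) or with no minimum RPKM (0.117).

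At the upstream Nr2e3 promoter peak, at chr9:59959371-59960483, which belongs to a start 10542 bases before the main one, H3K18La was called (1.94, adjusted p = 0.00238) with 1.28 to 1.56 RPKM at 5 mM and 4.54 to 9.14 at 25 mM. H3K27Ac measured 5.61 and 6.51, then 15.4 and 12.9. Those libraries did not overlap, yet the change of 1.16 (SE 0.49, adjusted p = 0.0501) fell just short of the threshold, and its direction turned when scaled to reads in peaks (-0.054). It passed when either library at 5 mM was left out (adjusted p = 0.0449 and 0.00614).

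**Figure D2:**
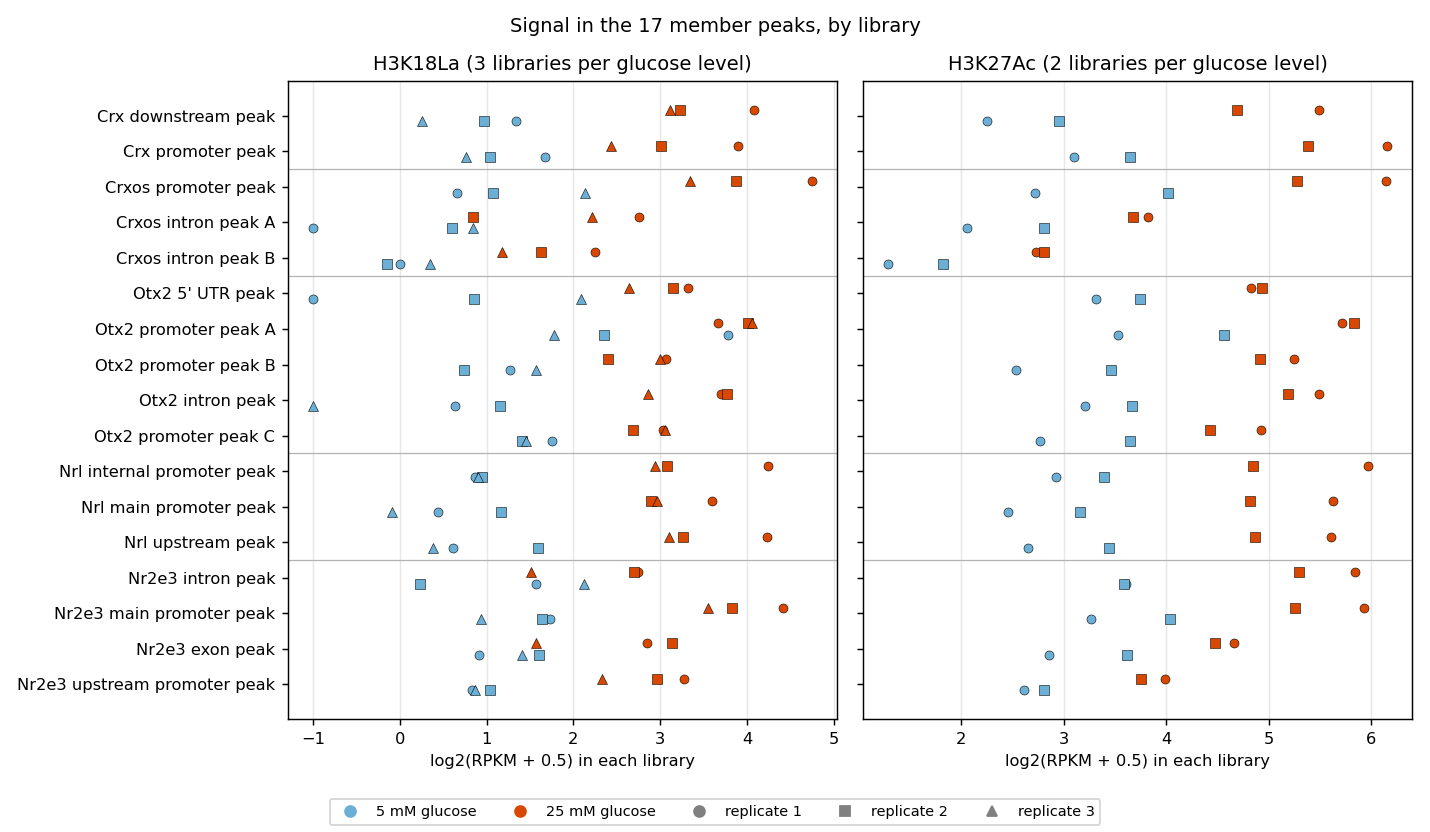
Signal of each library, as log2(RPKM + 0.5) on the horizontal axis, in the 17 member peaks for H3K18La (left) and H3K27Ac (right), coloured by glucose and shaped by replicate number. The 25 mM points lie to the right of the 5 mM points in 14 peaks for H3K18La and 17 for H3K27Ac, and the circle of replicate 1 is the farthest right at 25 mM in 13 of 17 and 14 of 17.

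**Figure D3:**
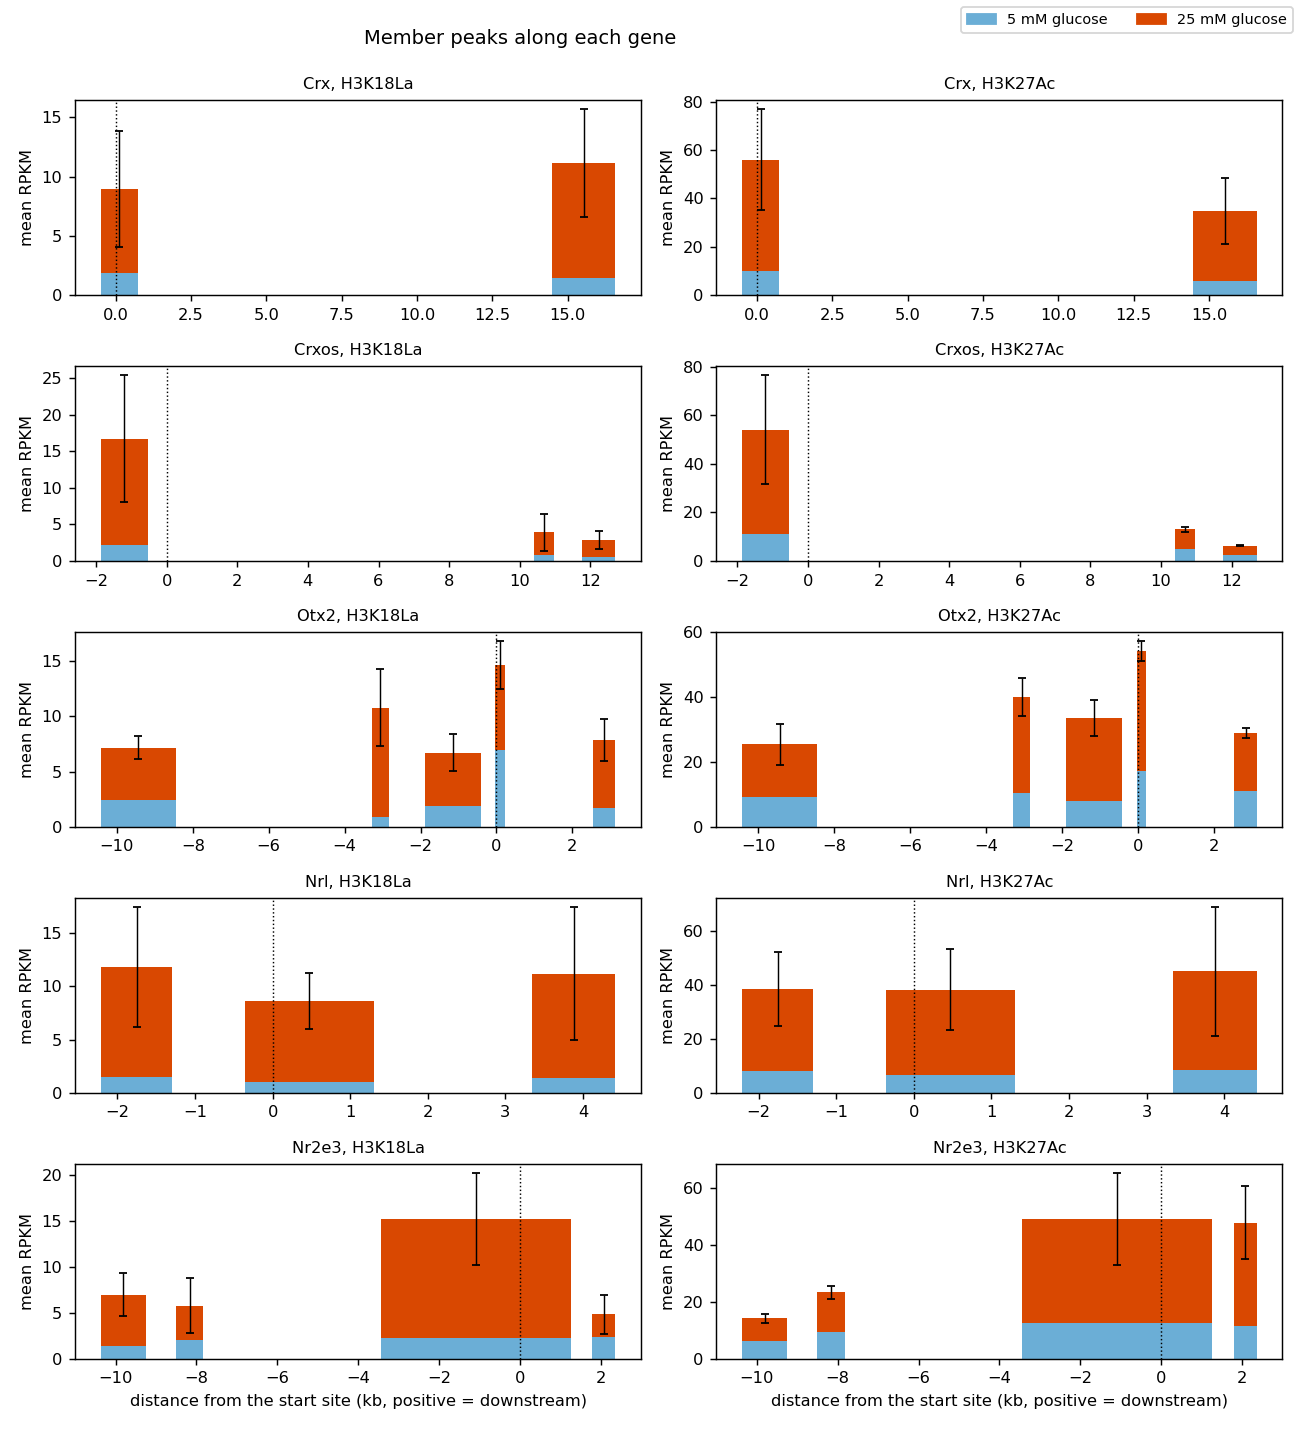
Group mean RPKM of each member peak (bars as wide as the peak, both drawn from 0, with the 5 mM bar in front of the 25 mM bar and the SD at 25 mM as a line) against distance in kb from the main start of the gene (dotted line). The Nrl peaks are of similar height, whereas the Crxos intron peaks and both upstream Nr2e3 peaks are low beside the promoter peak of their gene.

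The levels also varied among the members. Mean H3K18La ranged from 0.56 RPKM in Crxos intron peak B to 6.92 in Otx2 promoter peak A at 5 mM, and from 2.87 in the former to 16.7 in the Crxos promoter peak at 25 mM. For H3K27Ac the range was 2.49 to 17.1 and 6.31 to 56.0. Averaged over the libraries of a mark, both glucose levels together, the members lay at percentiles 63.7 to 98.8 of all peaks for H3K18La (median 90.7). For H3K27Ac they lay at 75.1 to 99.7 (median 98.2). At 5 mM alone the H3K18La percentiles were wider, from 29.8 (Crxos intron peak B) to 99.8 (Otx2 promoter peak A). The next lowest were Crxos intron peak A (43.2), the Otx2 intron peak (52.1) and the Nrl main promoter peak (56.6). For H3K27Ac at 5 mM they were 70.7 to 99.7. Across the 17 peaks, which share libraries, the order of the levels was similar in the 2 marks (Spearman 0.73 at 5 mM and 0.74 at 25 mM), and the order of the changes less so (0.53).

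Whether the 2 marks changed by different amounts was tested by the glucose by mark interaction over all 10 libraries. None of the 72467 peaks was called by limma (0, or 0.00%), while 3650 (5.04%) had an unadjusted p under 0.05. With voom on the recovered reads these counts were 0 and 5431. Among the members, 0 of 17 had an unadjusted p under 0.05, with p-values from 0.105 to 0.885. A difference between the marks was thus not detected in any member peak with these libraries.

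Pooling the reads of all peaks of a gene gave a level per gene and library. For H3K18La, Crx rose from 1.55 ± 0.69 to 10.3 ± 4.67 RPKM (SD, n = 3), Crxos from 1.36 ± 0.86 to 9.54 ± 4.82 and Nrl from 1.23 ± 0.55 to 10.2 ± 4.42. Nr2e3 rose from 2.12 ± 0.40 to 12.2 ± 3.96 and Otx2 from 2.25 ± 0.39 to 7.85 ± 0.79. The groups of each gene did not overlap, which held for 67.4% of 14877 genes pooled in this way (mean of at least 1 RPKM), and the exact two-sided permutation p was 0.1 for each (adjusted over 12 tests, 0.2), the smallest that 3 against 3 libraries allow. The ratios of the means were 8.29 for Nrl, 7.02 for Crxos, 6.67 for Crx, 5.75 for Nr2e3 and 3.49 for Otx2. Without replicate 3 at 5 mM, the ratio of Crxos was 10.9.

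For H3K27Ac, the pooled levels were 7.33 ± 2.36 and 42.7 ± 16.3 RPKM for Crx (SD, n = 2), 6.92 ± 3.81 and 29.9 ± 10.6 for Crxos, 7.58 ± 2.51 and 40.3 ± 17.3 for Nrl, 11.1 ± 3.64 and 41.0 ± 12.2 for Nr2e3, and 9.55 ± 3.82 and 31.3 ± 4.52 for Otx2. The ratios were 5.82, 4.32, 5.32, 3.69 and 3.28, and no gene overlapped (85.4% of 17544 genes). The exact permutation p was 0.333 for each, the smallest that 2 against 2 allow. Without replicate 2 at 5 mM, the ratio of Crxos was 7.08. Otx2 thus had the lowest ratio and, at 5 mM, the highest H3K18La level, followed by Nr2e3, Crx, Crxos and Nrl. At 25 mM the order was Nr2e3, Crx, Nrl, Crxos and Otx2. For H3K27Ac it was Nr2e3, Otx2, Nrl, Crx and Crxos at 5 mM and Crx, Nr2e3, Nrl, Otx2 and Crxos at 25 mM. In each of these orders neighbours differed by less than the larger of their SDs.

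Since reads in peaks made up more of the denominator at 25 mM, the same reads were set against all reads in peaks. On this scale the 17 peaks held 29.9 to 35.5 of every 100000 H3K18La reads in peaks at 5 mM and 53.1 to 88.3 at 25 mM, a ratio of 2.05. For H3K27Ac they held 68.7 and 78.3, then 143 and 112, a ratio of 1.74. The groups did not overlap for either mark (exact permutation p = 0.1 and 0.333). For H3K18La the ratio was 2.98 for Nrl, 2.51 for Crxos, whose groups overlapped, 2.40 for Crx, 2.08 for Nr2e3 and 1.28 for Otx2. The 4 genes without overlap compare with 9.57% of all genes. For H3K27Ac it was 2.41 for Crx, 2.19 for Nrl, 1.85 for Crxos, 1.54 for Nr2e3 and 1.39 for Otx2, all 5 without overlap, against 23.4% of all genes. The ratio of Crxos for H3K18La was 3.92 without replicate 3 at 5 mM.

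Otx2 was the lowest on both scales and in both marks, and its libraries at 25 mM were the closest together. Its H3K18La density relative to the other 4 genes pooled was 1.35 ± 0.32 at 5 mM and 0.78 ± 0.24 at 25 mM (SD, n = 3). These groups overlapped (exact permutation p = 0.2, adjusted over 10 tests 0.556). For H3K27Ac it was 1.07 ± 0.05 and 0.83 ± 0.18 (SD, n = 2, exact permutation p = 0.333), without overlap. Nor did the H3K27Ac groups overlap on this ratio for Crx (means 0.79 and 1.15), Nrl (0.82 and 1.07) and Nr2e3 (1.40 and 1.15), whereas those of Crxos did. The smallest p that the exact permutation test allows is 0.1 for 3 against 3 libraries and 0.333 for 2 against 2, so it could not reach 0.05 for either mark.

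**Figure D4:**
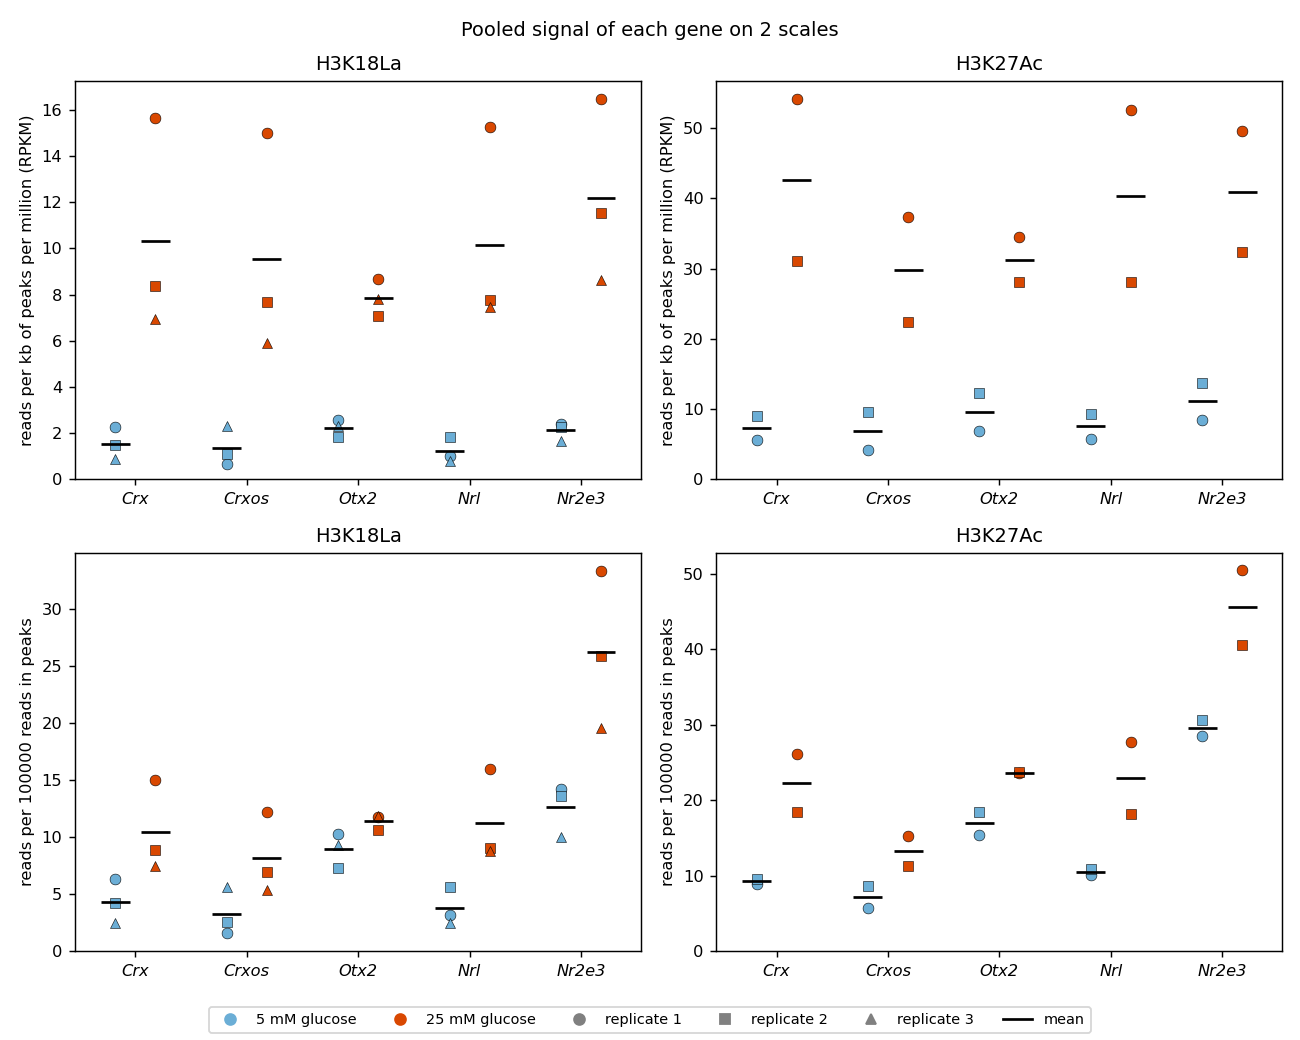
Pooled signal of each gene in every library (points, shaped by replicate) with the group mean as a line, as RPKM (upper panels) and per 100000 reads in peaks (lower panels), for H3K18La (left) and H3K27Ac (right). The 25 mM points lie above the 5 mM points for every gene except Crxos in the lower left panel, and Otx2 has the smallest ratio of means in each panel.

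The libraries of a group kept an order in many member peaks. Replicate 1 was the highest of the 3 H3K18La libraries at 25 mM in 13 of 17 member peaks, against 44.9% of all peaks tested, and the higher of the 2 H3K27Ac libraries at 25 mM in 14 of 17, against 60.9%. At 5 mM, replicate 2 of H3K27Ac was the higher in 16 of 17, against 77.2%. The exceptions for H3K18La at 25 mM were the Nr2e3 exon peak and the Otx2 intron peak, promoter peak A and promoter peak C. Replicate 1 at 25 mM also had the most reads in peaks relative to its denominator in each mark (35.0% and 69.5%), and the part of that in the gene levels was not tested.

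Related genes were compared through the strongest promoter peak of each gene. The 5 members had a median change of 2.50 for H3K18La and 2.25 for H3K27Ac, and all 5 were called higher in both marks. Of 13 further regulators of photoreceptors, 12 were tested for H3K18La and 11 were higher (median 1.84), and 11 of 13 were higher for H3K27Ac (median 1.94). Across all genes with a tested promoter peak, 32.6% were called higher for H3K18La (median 1.05) and 59.1% for H3K27Ac (median 1.25), and 0.0477% and 0.0466% lower. Thrb, a thyroid hormone receptor of cones, rose from 4.31 ± 0.52 to 16.0 ± 3.61 RPKM for H3K18La (SD, n = 3, log2 change 1.76). Neurod1, a basic helix-loop-helix factor of photoreceptors, rose from 1.66 ± 0.54 to 13.9 ± 7.59 (2.64), and Casz1, a zinc finger factor, from 1.02 ± 0.85 to 13.7 ± 9.40 (3.18).

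Of 18 rod genes known as targets of CRX and NRL, 17 had a promoter peak, and all 17 were called higher in both marks, with medians of 2.21 and 2.09. Guca1b, a calcium sensor of guanylate cyclase, measured 2.53 ± 1.08 and 20.9 ± 9.41 RPKM for H3K18La (SD, n = 3, 2.79), and Sag, the rod arrestin, 3.03 ± 1.12 and 20.3 ± 10.7 (2.48). The summed level of the rod promoters was 29.5 to 36.9 RPKM at 5 mM and 126 to 280 at 25 mM for H3K18La, and 123 to 215 and 550 to 933 for H3K27Ac, the highest of the marker lists in every group. The sums run over unequal numbers of promoters, 17 for rods against 9 for cones, 6 for bipolar cells and 9 for Müller glia. This favours the longest list. Of 8 genes of the OTX, MAF and NR2E families outside the members, 4 were tested for H3K18La and 1, Maff, was higher (median 1.07). Of these genes 5 were tested for H3K27Ac and 4 were higher (median 1.17). Their summed levels were 9.01 to 16.0 RPKM for H3K18La at 25 mM, against 49.1 to 92.3 for the 5 members. The difference between the lists was not tested.

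Markers of other retinal cells moved as follows. For cones, 4 of 9 promoters tested were higher for H3K18La (median 1.53) and 3 of 8 for H3K27Ac (0.99), and their summed level went from 7.97 to 14.2 RPKM at 5 mM to 33.5 to 41.9 at 25 mM for H3K18La and from 10.3 to 14.2 to 34.1 to 42.0 for H3K27Ac. Guca1a, Opn1mw and Pde6c, the most strongly marked of them, were each higher for H3K18La (2.27, 1.62 and 1.59). For bipolar cells, in which Otx2 is also expressed, 0 of 6 reached the minimum level for H3K18La, with sums of 3.25 to 3.89 and 3.88 to 4.26 RPKM, and 4 of 6 were higher for H3K27Ac (median 1.38), with sums of 5.08 to 7.07 and 19.8 to 33.9. Trpm1, the cation channel of ON bipolar cells, had the largest H3K27Ac change of these (2.80). For Müller glia, 1 of 7 was higher for H3K18La (median 0.91) and 5 of 8 for H3K27Ac (1.26), with sums of 10.9 to 12.2 and 25.2 to 30.3 RPKM for H3K18La and 22.0 to 28.9 and 54.6 to 68.2 for H3K27Ac.

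Few genes of the remaining lists had a promoter peak. Of 6 genes each for amacrine cells, ganglion cells, microglia and pigment epithelium, 3, 3, 1 and 3 had a promoter peak, none of which was without reads in any group. Amacrine sums for H3K18La were 1.60 to 3.26 RPKM at 5 mM and 7.15 to 10.0 at 25 mM, ganglion cell sums 0.83 to 2.44 and 2.19 to 2.78, microglial sums 0.53 to 1.66 and 1.94 to 3.87, and pigment epithelial sums 1.53 to 2.56 and 7.003 to 7.58. For H3K27Ac the amacrine, ganglion cell, microglial and pigment epithelial sums were 7.21 to 9.34, 0.89 to 2.93, 0.33 to 1.04 and 4.74 to 4.89 at 5 mM and 19.3 to 40.1, 3.19 to 3.88, 1.06 to 1.496 and 7.47 to 8.25 at 25 mM. Of the promoters tested for H3K18La, 1 of 1 amacrine, 0 of 1 microglial and 2 of 3 pigment epithelial ones were higher, and for H3K27Ac 1 of 1 amacrine, 1 of 1 ganglion cell and 0 of 2 pigment epithelial ones. Most of the amacrine signal, and the amacrine calls in both marks, came from Slc6a9, a glycine transporter, which went from 1.89 ± 1.01 to 7.49 ± 2.01 RPKM for H3K18La (SD, n = 3) and from 7.43 ± 1.49 to 27.6 ± 14.4 for H3K27Ac (SD, n = 2). The part of cell composition in the changes of the 17 peaks was not tested.

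**Figure D5:**
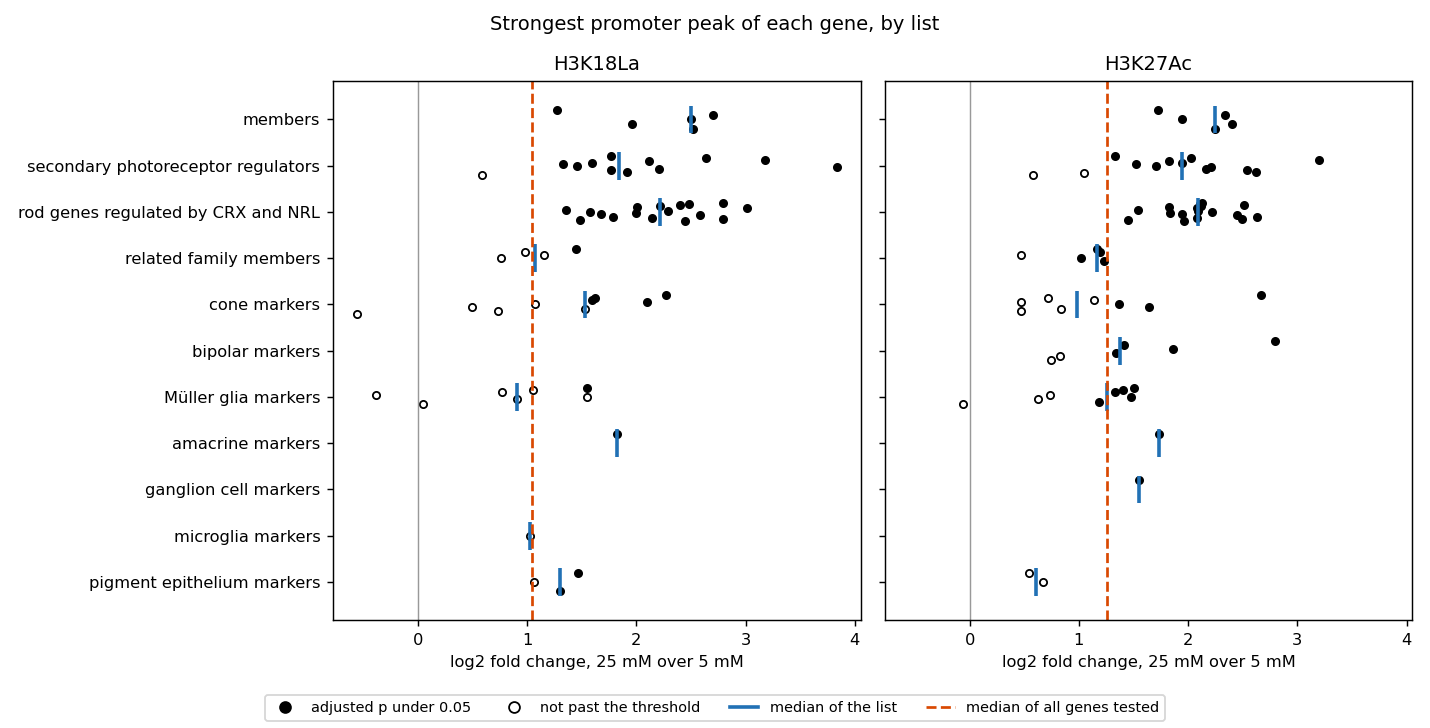
Log2 fold change (25 mM over 5 mM glucose) at the strongest promoter peak of each gene, by list, for H3K18La (left) and H3K27Ac (right), filled where the adjusted p was under 0.05, with the list median in blue and the median of all genes tested (1.05 and 1.25) dashed. The members, the further photoreceptor regulators and the rod genes lie mostly to the right of the dashed line, and the related family members lie around it.

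The genes whose strongest promoter peak followed each member most closely over the 10 libraries were sought by Pearson correlation of log2(RPKM + 0.5), with Nrl represented by its internal promoter peak and Otx2 by promoter peak A. For Crx they were Man2a2, Rab18 and Impdh1 (r = 0.998, 0.997 and 0.997), and for Crxos Nrip1, Slc1a2 and Gpsm3 (0.992, 0.992 and 0.991). Nrl was followed by Tmem135 and Baz2b (0.996 each), Nr2e3 by Trim2, Lrrc2 and Rd3 (0.998 each), and Otx2 by Gm9895, 4930445N18Rik and Pop5 (0.990, 0.987 and 0.977). Of 10099 candidate genes, 1311 (Otx2) to 4770 (Crx) had r above 0.9. The libraries fall into 4 groups that differ in overall signal, so such values are common and single out few genes. Among the members themselves, Nrl and Nr2e3 were the closest pair (r = 0.985) and Crxos and Otx2 the least alike (0.765). By Spearman coefficient Crxos and Nrl were the closest (0.988, against 0.964 for Nrl and Nr2e3), and Crxos and Otx2 stayed the least alike (0.733).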

How the data were processed

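CUT&Tag libraries of 4 groups were compared. The authors aligned reads to GRCm38 with nf-core/cutandrun, called consensus peaks with MACS, removed blacklisted regions, annotated peaks with ChIPseeker 1.34.1 and counted reads in merged peaks with csaw. The deposited values are RPKM per peak and library. Promoter peaks lie -1000 to 500 bp from a start. The authors' own test table (edgeR 3.40.2; fold changes, p-values and group means) was not used.

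Members were all peaks with the symbols Crx, Crxos, Nrl, Nr2e3 and Otx2. The members, lists and fits were chosen with earlier results of these data known. Reads were recovered from the RPKM steps (100% of values whole within 0.01), and denominators of 1358008 to 7424470 followed from them. Intervals and floors cover counting error only, since reads carry no molecular identifiers. Peaks with a mean of at least 1 RPKM over both glucose levels of a mark were fitted with limma 3.58.1 (R 4.3.3, trend), adjusted by Benjamini-Hochberg at 0.05. The fitted scale was log2(RPKM + 0.5). This scale understates the change of weak peaks. A planned count model in edgeR was not run on RPKM. Scripts (Python 3.11.15, scipy 1.17.1) were tested on simulated data. All replicate pairs differed by more than counting noise. Genes of a list were named as the 3 with the highest mean RPKM, and genes like a member as the 3 with the highest Pearson r. A gene that these rules name is not reported here. All 10 member transcripts found in GENCODE M21 had the same coordinates. Alternatives were other pseudocounts, minimums, scalings, thresholds, moderation, voom, 1 fit of all libraries, a replicate block and leaving out each library.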

Additional observations from a re-analysis of the deposited data

How the results depend on the processing

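Of all peaks tested, 24539 passed for H3K18La and 24698 for H3K27Ac. At an adjusted p of 0.01 these were 12370 and 9840, with 10 member peaks for H3K27Ac. Centred on the median peak they were 1040 and 1144, with 1 and 7 member peaks, and scaled to reads in peaks 0 and 0 by limma (7636 and 12491 at an unadjusted p under 0.05), with 0 member peaks. Centred on the weakest decile of peaks they were 0 (5751 at an unadjusted p under 0.05) with 0 member peaks for H3K18La, and 10539 for H3K27Ac. With no minimum RPKM, limma called 0 peaks for H3K27Ac (31013 at an unadjusted p under 0.05) and 0 members, and with all 10 libraries in 1 fit 7607. Leaving out 1 library gave 15592 to 24366 peaks and 11 to 14 members for H3K18La, and 10 to 38643 peaks and 0 to 17 members for H3K27Ac, where the arm with 1 library was assumed to vary like the other. The lowest and highest of these came without replicate 1 at 25 mM and without replicate 2 at 5 mM. The cause was not tested.

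Directions turned for H3K18La in the Nr2e3 intron peak (-0.20 scaled to reads in peaks, -0.20 centred on the weakest decile), the Nr2e3 exon peak (-0.034 and -0.0075) and Otx2 promoter peak A (-0.090, reads in peaks), and for H3K27Ac in the upstream Nr2e3 promoter peak (-0.054, reads in peaks). Leaving out a library turned the direction of no member in either mark. The glucose by mark difference passed for 0 peaks in every alternative run, and 0 to 2 member peaks had an unadjusted p under 0.05. Spearman coefficients, planned in place of Pearson's for genes like a member, kept 1 of 15 names. They tied at 1 for 5 of these genes, all like Crx, Crxos or Nr2e3, but not for those like Nrl and Otx2 (0.903 to 0.976), none of which was kept.

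With the replicate number as a block, 23918 peaks and 15 members passed for H3K18La, and 7897 peaks and 2 members for H3K27Ac. Deviations of same-numbered libraries of a mark correlated by 0.013 to 0.029. Between the marks those at 25 mM correlated by 0.193 (replicate 1) and 0.0732 (replicate 2) and those at 5 mM by -0.015 and -0.00081. The labels name no shared animal or day and most values were under 0.1, so the numbers were not taken as pairing. A count model in edgeR was planned and not run, since the values are RPKM. H3K18La at 5 mM, with a median of 3 reads per member peak and library, limits its precision.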
